A study of Homo sapiens with 12 samples.

Results

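REH and NALM-6, human B-cell lymphoblastic leukemia lines, were compared inside human cerebrospinal fluid (CSF), which bathes the brain and spinal cord. The members were all autosomal genes with at least 1 CPM (reads per 1000000 reads of a library) in at least 3 of the 6 CSF libraries. These were 13425 of the 60617 genes in the table, and 11478 of them were protein-coding. The libraries compared were 3 of REH cells and 3 of NALM-6 cells, each after 48 h in CSF. REH and NALM-6 cells kept equally long in standard culture (media: RPMI plus 10% fetal calf serum), 3 libraries each, are used only to show which of these differences were also present outside CSF. The series title concerns methotrexate, an antifolate drug, but no label names a drug, and the groups differ by line and medium only. Each line stands for a single leukemia, so the founding lesion and every other difference between the lines cannot be told apart. In RNA from whole cultures, fewer cells of a type and less RNA per cell cannot be told apart either. The labels do not say whether replicates were separate cultures, so the spread behind the p-values may be no more than technical.

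B-lymphoblastic leukemia cells are arrested B-cell precursors. Such cells can display a pre-B receptor, in which the immunoglobulin mu heavy chain pairs with a surrogate light chain and signals through CD79A and CD79B. The leukemias fall into subtypes by founding lesion: REH carries the ETV6-RUNX1 fusion, which keeps the DNA-binding domain of RUNX1, and NALM-6 is known for a rearrangement of the transcription factor gene DUX4. The central nervous system is a known site of relapse, and CSF holds little protein and lipid compared with serum.

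The 6 CSF libraries held 23412869 to 30647110 reads, and 3 reads, the most that a count of 0 allows, corresponded to 0.0979 to 0.128 CPM. The third REH library, REH CSF 3, stood apart. Cytosolic ribosomal protein genes took 9.40% of its reads, against 5.21% and 5.69% in the other REH libraries and 5.97% to 6.19% in NALM-6 libraries, and the mean exonic length of the genes read was 5.34 kb, against 6.27 and 6.28 kb in the other REH libraries and 6.09 to 6.24 kb in NALM-6. Counts of calls over all members, gene lists and gene clusters in CSF are therefore given with and without this library. The 10 defining markers of B-cell leukemia were all read and summed to 2285 to 2496 CPM in REH and 4060 to 4108 CPM in NALM-6, with only VPREB1 near 0, in REH. Of 11 T cell markers, CD3D, CD8A, CD8B and CD5 had 0 reads in the 6 libraries, and the list summed to 83.6 to 117 CPM in REH and 38.7 to 43.5 CPM in NALM-6, most of it TRAC. Of 11 myeloid markers, ELANE, S100A8 and S100A9 had 0 reads, and the list summed to 154 to 200.02 CPM in REH and 7.89 to 8.58 CPM in NALM-6. That sum came mainly from MPO, ITGAM and CSF1R, while LYZ, the lysozyme gene, went the other way with 1.25, 1.28 and 2.04 CPM in REH, against 5.16, 6.08 and 5.19 CPM in NALM-6. MPO, a granule enzyme of myeloid cells, had 102, 122 and 92.3 CPM in REH, against 1.32, 0.847 and 0.816 CPM in NALM-6. The integrin gene ITGAM had 53.6, 60.2 and 42.6 CPM in REH, against 1.28, 1.25 and 1.73 CPM in NALM-6. CSF1R, the macrophage growth factor receptor gene, had 16.2, 15.8 and 16.8 CPM in REH, against 0, 0.332 and 0.0979 CPM in NALM-6. The 9 stromal markers summed to 95.8 to 150.4 CPM in REH and 11.8 to 14.9 CPM in NALM-6, nearly all from PDGFRB and COL1A1, while COL1A2, COL3A1, DCN and LUM had 0 reads. The 10 neural markers summed to 27.7 to 49.0 CPM in REH and 123 to 133 CPM in NALM-6, most of it MBP, which lymphocytes also express. SYT1, a synaptic vesicle gene, went against that sum, with 18.1, 17.7 and 11.4 CPM in REH, against 0, 0 and 0 CPM in NALM-6. The 7 plasma cell markers summed to 358 to 464 CPM in REH and 956 to 969 CPM in NALM-6, and the 7 natural killer cell and 9 erythroid and megakaryocyte markers to at most 17.9 and 6.32 CPM in any library. The part of these genes in other differences was not tested.

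Of the 13425 members, 6359 (47.4%) were called different between REH and NALM-6 in CSF by limma on log2(CPM + 1) at a Benjamini-Hochberg adjusted p under 0.05. REH was higher for 3754 (28.0%) and lower for 2605 (19.4%). Without REH CSF 3 the calls numbered 8562 (63.8%), 4972 higher (37.0%) and 3590 lower (26.7%). Of the first calls, 6338 (99.7%, or 47.2% of members) were made again with the same sign without that library, and 21 were lost. A log2 difference of at least 1, a 2-fold difference, was reached by 3289 called genes (24.5%), 2036 higher (15.2%) and 1253 lower (9.33%), and by 3204 (23.9%) without REH CSF 3. For 8262 genes (61.5%) the 3 REH libraries all lay on one side of the 3 NALM-6 libraries. Of all members, 1141 were under 1 CPM in every NALM-6 CSF library and 539 in every REH CSF library. These passed the filter through the other line alone, so their direction was fixed by the filter, and they enter the counts above. All 3289 genes with a 2-fold difference were also called by edgeR and by DESeq2. The median log2 difference over all members was 0.05. The split of 3754 higher to 2605 lower depends on scaling, with 3407 and 3094 under median-of-ratios scaling and 3132 and 3246 under quantile normalization.

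In what follows, values are CPM in libraries 1, 2 and 3 of each line in CSF, a difference is REH minus NALM-6 on the log2(CPM + 1) scale with its SE after ±, and adjusted p-values are limma's over all 13962 genes tested. On this scale the difference of a gene near 0 CPM in one line is understated. The counts of each gene list are to be read against the shares of all members. In CSF 28.0% were called higher and 19.4% lower (37.0% and 26.7% without REH CSF 3), and in media 26.0% and 13.3%. A list near these shares does not stand apart from all members. Where a line had no reads, the fold is a bound against 3 reads over its 3 libraries, and where it had 1 to 3 reads the ratio of summed reads is given with its 95% counting interval. Any named gene under 1 CPM in all 3 CSF libraries of a line passed the filter through the other line alone, so its direction was fixed.

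The lines differed in which chains of the pre-B receptor they expressed. VPREB1 encodes a surrogate light chain protein, and it had 0.0391, 0.0427 and 0.0691 CPM in REH, against 238, 214 and 224 CPM in NALM-6 (log2 difference −7.75 ± 0.11, adjusted p = 4.3e-08). IGLL1, the other surrogate light chain gene, had 179.99, 215 and 281 CPM in REH, against 664, 668 and 639.7 CPM in NALM-6 (log2 difference −1.56 ± 0.17, adjusted p = 2.2e-04). VPREB3, a related gene of pre-B cells, had 57.4, 55.2 and 94.2 CPM in REH, against 141, 134 and 144 CPM in NALM-6 (log2 difference −1.05 ± 0.21, adjusted p = 0.005). All 3 were lower in every REH library than in any NALM-6 library, but REH kept IGLL1 and VPREB3 and lacked nearly all VPREB1. CD79A, a signaling chain of the receptor, went the other way, with 336, 381 and 480.5 CPM in REH, against 161, 155 and 163 CPM in NALM-6 (log2 difference 1.30 ± 0.15, adjusted p = 2.9e-04). Its partner CD79B had 122, 168 and 253 CPM in REH, against 138, 139 and 137 CPM in NALM-6, and the lines overlapped (log2 difference 0.33 ± 0.25, adjusted p = 0.31).

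The 250 bases before the RefSeq start site of VPREB1, VPREB3, IGLL1 and CD79A are shown because these called genes of the receptor went in opposite directions. They are from RefSeq on GRCh38.p14 and are written 5′ to 3′ on the gene's strand: chr22:22244536-22244785, plus, for VPREB1, chr22:23754426-23754675, minus, for VPREB3, chr22:23580291-23580540, minus, for IGLL1, and chr19:41877029-41877278, plus, for CD79A. Capitals mark TGTGGT, a core of the RUNX binding motif, or its reverse complement ACCACA, and the motif was chosen with the values known.
VPREB1: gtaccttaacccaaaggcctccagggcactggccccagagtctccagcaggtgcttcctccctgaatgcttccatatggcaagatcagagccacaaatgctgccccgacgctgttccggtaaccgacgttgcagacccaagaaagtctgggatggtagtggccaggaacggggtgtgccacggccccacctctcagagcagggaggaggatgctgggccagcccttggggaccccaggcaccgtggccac
VPREB3: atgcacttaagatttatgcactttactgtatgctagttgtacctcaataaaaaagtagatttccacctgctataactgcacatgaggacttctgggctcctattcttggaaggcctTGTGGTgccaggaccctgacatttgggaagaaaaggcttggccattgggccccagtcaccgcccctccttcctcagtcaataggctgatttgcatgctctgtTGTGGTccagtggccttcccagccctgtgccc
IGLL1: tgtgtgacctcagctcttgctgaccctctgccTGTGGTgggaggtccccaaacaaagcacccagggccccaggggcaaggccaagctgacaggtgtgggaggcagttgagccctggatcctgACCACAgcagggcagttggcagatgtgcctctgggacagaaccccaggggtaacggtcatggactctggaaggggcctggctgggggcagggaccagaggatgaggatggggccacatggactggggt
CD79A: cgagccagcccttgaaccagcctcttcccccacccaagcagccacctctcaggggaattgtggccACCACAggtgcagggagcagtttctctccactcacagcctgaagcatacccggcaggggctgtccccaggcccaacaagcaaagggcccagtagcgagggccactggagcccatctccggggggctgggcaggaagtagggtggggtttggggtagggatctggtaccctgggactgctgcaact

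VPREB3 held 2 matches, starting 134 and 32 bases before the start site, IGLL1 held 2, at 218 and 128 bases, CD79A held 1, at 185 bases, and VPREB1 held 0. Of the 9550 members with a promoter in this table, 7.61% held the motif in the same window on either strand. A match is a description of the letters and does not show binding.

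Among all receptor and signaling genes of this set, 7 of 23 measured members were called higher in REH and 12 lower (7 and 13 without REH CSF 3), with a median log2 difference of −0.53. The mu heavy chain gene IGHM had 138, 150.3 and 187 CPM in REH, against 1418, 1341 and 1323 CPM in NALM-6 (log2 difference −3.11 ± 0.14, adjusted p = 1.9e-06). LYN, a kinase that starts receptor signaling, had 25.3, 23.1 and 20.1 CPM in REH, against 100.4, 108 and 110.4 CPM in NALM-6 (log2 difference −2.17 ± 0.12, adjusted p = 6.4e-06). ZAP70, a kinase best known in T cells, had 0.704, 0.641 and 0.76 CPM in REH, against 53.9, 40.3 and 46.3 CPM in NALM-6 (log2 difference −4.80 ± 0.14, adjusted p = 2.2e-07). REH was below NALM-6 in every library for these 3 genes. Some downstream genes were higher instead. The protein kinase C gene PRKCB had 188, 189 and 114 CPM in REH, against 0.623, 1.44 and 0.881 CPM in NALM-6 (log2 difference 6.36 ± 0.25, adjusted p = 8.9e-07). The RAS activator gene RASGRP1 had 32.4, 26.6 and 15.7 CPM in REH, against 0.138, 0.221 and 0.653 CPM in NALM-6 (log2 difference 4.24 ± 0.28, adjusted p = 1.4e-05). In both, REH CSF 3 was the lowest REH library and still above every NALM-6 library. CD22, an inhibitory co-receptor and antibody target, had 294, 324 and 285 CPM in REH, against 109, 101 and 112 CPM in NALM-6 (log2 difference 1.48 ± 0.11, adjusted p = 2.6e-05). Every REH library was above every NALM-6 library.

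**Figure D1:**
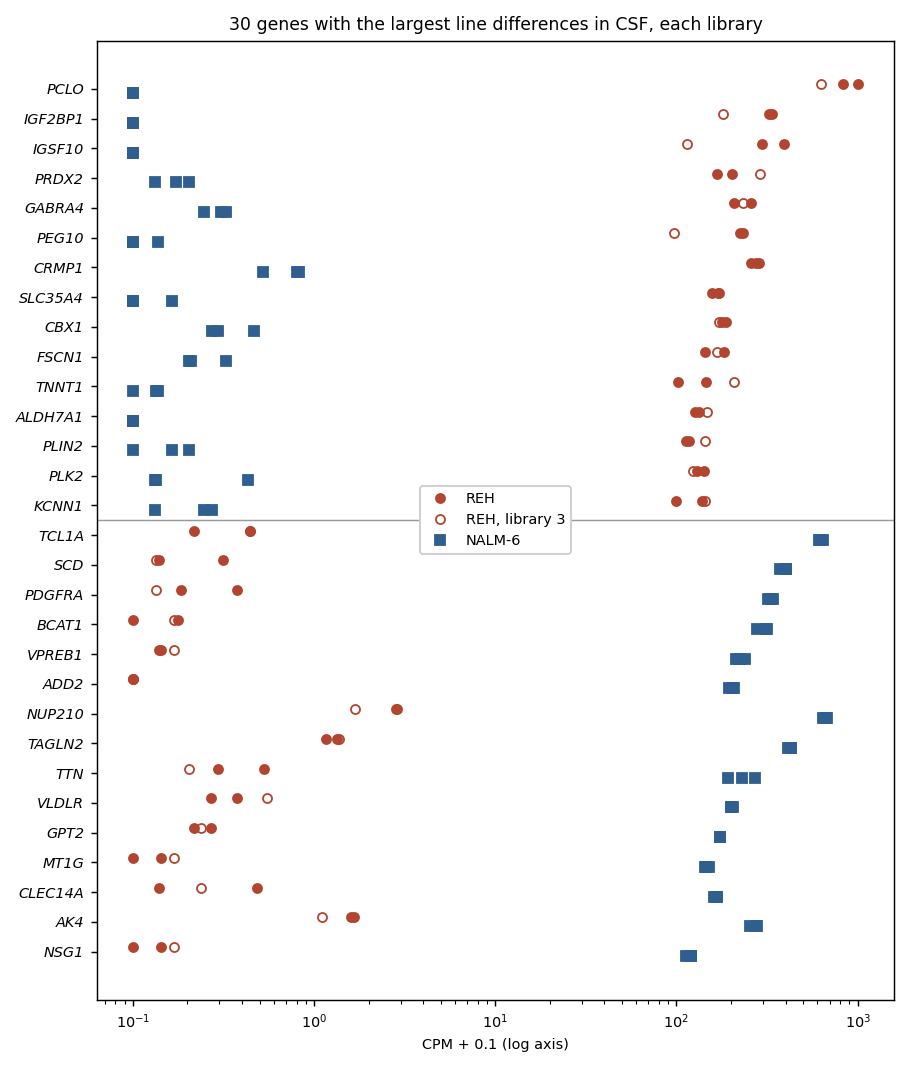
CPM + 0.1 in each CSF library (log axis) for the 15 protein-coding genes with the largest positive and the 15 with the largest negative line difference, REH as circles (library 3 open) and NALM-6 as squares. In the upper genes NALM-6 lies at or near 0, as for PCLO with 0 reads, and in the lower genes REH does, as for ADD2 with 0 reads.

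The largest differences were genes present in one line and near 0 in the other. The genes of this paragraph and the next were picked as the most extreme in these data. Those under 1 CPM in every library of one line passed the filter through the other line alone. Their direction was thus fixed, and their adjusted p-values are a description. Higher in REH, PCLO, a scaffold gene of presynaptic terminals (ENSG00000186472, chromosome 7, 82754013 to 83162930, minus strand on GRCh38), had 1006, 829.7 and 625 CPM in REH, against 0, 0 and 0 CPM in NALM-6 (at least 23455-fold higher in REH, adjusted p = 5.7e-08). IGF2BP1, a fetal RNA-binding protein gene, had 335, 323 and 179.97 CPM in REH, against 0, 0 and 0 CPM in NALM-6 (at least 7912-fold higher in REH, adjusted p = 2.7e-07). The immunoglobulin-superfamily gene IGSF10 had 393, 296 and 115 CPM in REH, against 0, 0 and 0 CPM in NALM-6 (at least 7532-fold higher in REH, adjusted p = 4.5e-06). In all 3, REH CSF 3 was the lowest REH library and NALM-6 had no read. The imprinted gene PEG10 had 234, 223 and 97.5 CPM in REH, against 0, 0.0368 and 0 CPM in NALM-6 (ratio of summed reads 15609, interval 2801 to 616553, adjusted p = 1.7e-06). In PEG10 NALM-6 had 1 read in all. Some of the genes have housekeeping roles and were near 0 in NALM-6. PRDX2, a peroxide-removing enzyme gene, had 167, 203 and 291 CPM in REH, against 0.104, 0.0737 and 0.0326 CPM in NALM-6 (log2 difference 7.65 ± 0.20, adjusted p = 1.7e-07). CBX1, a heterochromatin protein gene, had 188, 179 and 173 CPM in REH, against 0.173, 0.368 and 0.196 CPM in NALM-6 (log2 difference 7.18 ± 0.12, adjusted p = 4.4e-08). The lysine-catabolism gene ALDH7A1 had 127, 133 and 148 CPM in REH, against 0, 0 and 0 CPM in NALM-6 (at least 3942-fold higher in REH, adjusted p = 4.3e-08). The other genes of the 15 were GABRA4, CRMP1, SLC35A4, FSCN1, TNNT1, PLIN2, PLK2 and KCNN1, with log2 differences between 6.82 and 7.61.

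Lower in REH, TCL1A, an AKT co-activator gene of B cells (ENSG00000100721, chromosome 14, 95709967 to 95714196, minus strand), had 0.117, 0.342 and 0.346 CPM in REH, against 641, 625 and 608 CPM in NALM-6 (log2 difference −8.95 ± 0.12, adjusted p = 4.3e-08). SCD, the stearoyl-CoA desaturase that makes monounsaturated fatty acids, had 0.0391, 0.214 and 0.0346 CPM in REH, against 374, 401 and 401 CPM in NALM-6 (log2 difference −8.49 ± 0.12, adjusted p = 4.3e-08). BCAT1, which starts the breakdown of branched-chain amino acids, had 0.0783, 0 and 0.0691 CPM in REH, against 277, 311 and 316 CPM in NALM-6 (log2 difference −8.17 ± 0.11, adjusted p = 4.3e-08). NALM-6 held at least 277 CPM of each and no REH library reached 1 CPM. The next genes had the same pattern. GPT2, a mitochondrial alanine aminotransferase gene, had 0.117, 0.171 and 0.138 CPM in REH, against 173, 174 and 174 CPM in NALM-6 (log2 difference −7.26 ± 0.10, adjusted p = 4.3e-08). VLDLR, a lipoprotein receptor gene, had 0.274, 0.171 and 0.449 CPM in REH, against 199.6, 205 and 200.5 CPM in NALM-6 (log2 difference −7.29 ± 0.12, adjusted p = 4.6e-08). ADD2, a membrane skeleton gene, had 0, 0 and 0 CPM in REH, against 195, 208 and 205 CPM in NALM-6 (at least 5261-fold lower in REH, adjusted p = 4.3e-08). REH had no read of ADD2 and at most 0.449 CPM of the other pair. The nuclear pore gene NUP210 averaged 2.37 ± 0.674 CPM in REH and 664 ± 17.2 CPM in NALM-6 (SD, n = 3 each). The actin-binding gene TAGLN2 averaged 1.19 ± 0.118 CPM in REH and 424 ± 10.2 CPM in NALM-6 (SD, n = 3 each). The other genes of the 15 were PDGFRA, VPREB1, TTN, MT1G, CLEC14A, AK4 and NSG1, with log2 differences between −8.20 and −6.84.

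In the wider class of genes without a read in one line, 197 members had 0 reads in NALM-6 and a mean of at least 5 CPM in REH (196 without REH CSF 3), and 168 of them were protein-coding. The reverse held for 71 members (90 without REH CSF 3), of which 60 were protein-coding. The 197 and the 71 passed the filter through the other line alone, so their direction was fixed and the counts are a description. After PCLO, IGSF10, IGF2BP1 and ALDH7A1, the most abundant genes without NALM-6 reads included TNFAIP2, SKAP2, which encodes a SRC kinase-associated adaptor, and the desmosome gene DSC3. TNFAIP2, a target of inflammatory signaling, had 107, 115 and 88.5 CPM in REH, against 0, 0 and 0 CPM in NALM-6 (at least 2966-fold higher in REH, adjusted p = 6.3e-08). NALM-6 had no read of TNFAIP2 and REH at least 88.5 CPM. Without REH reads, PGBD5, a gene derived from a transposase, had 0, 0 and 0 CPM in REH, against 93.6, 88.8 and 93.5 CPM in NALM-6 (at least 2391-fold lower in REH, adjusted p = 4.3e-08). SPRED1, an inhibitor of RAS signaling, had 0, 0 and 0 CPM in REH, against 32.6, 33.7 and 35.1 CPM in NALM-6 (at least 879-fold lower in REH, adjusted p = 6.4e-08). MTX2, part of the mitochondrial import machinery, had 0, 0 and 0 CPM in REH, against 41.4, 39.5 and 42.7 CPM in NALM-6 (at least 1072-fold lower in REH, adjusted p = 5.8e-08).

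The genes linked to each line's subtype were drawn up with results of these lines known, so their directions are not independent evidence. Of the genes linked to the ETV6-RUNX1 subtype, 10 of 15 measured members were called higher in REH and 3 lower (11 and 4 without REH CSF 3), with a median log2 difference of 3.55. Besides PCLO and IGF2BP1, these included the erythropoietin receptor gene EPOR, which had 31.4, 37.4 and 38.3 CPM in REH, against 1.94, 2.17 and 2.25 CPM in NALM-6 (log2 difference 3.55 ± 0.13, adjusted p = 6.0e-07). The potassium channel gene KCNN1 had 98.9, 138 and 144 CPM in REH, against 0.173, 0.147 and 0.0326 CPM in NALM-6 (log2 difference 6.82 ± 0.17, adjusted p = 1.3e-07). BIRC7, an inhibitor of apoptosis, had 36.1, 50.1 and 67.1 CPM in REH, against 0.104, 0.0737 and 0.0326 CPM in NALM-6 (log2 difference 5.56 ± 0.22, adjusted p = 9.5e-07). Every REH library was above every NALM-6 library for each of these. The fusion partners were not higher in REH. ETV6, a partner in the fusion, had 5.28, 4.31 and 2.04 CPM in REH, against 73.2, 72.3 and 78.996 CPM in NALM-6 (log2 difference −4.02 ± 0.26, adjusted p = 1.4e-05). RUNX1, the other partner, had 269, 268 and 146 CPM in REH, against 315, 334 and 333 CPM in NALM-6 (log2 difference −0.58 ± 0.24, adjusted p = 0.089), and it was called lower without REH CSF 3 (adjusted p = 0.0033). RAG1, a recombinase gene, had 823, 655 and 288 CPM in REH, against 418, 467 and 478 CPM in NALM-6, a range in REH that spans NALM-6 (log2 difference 0.24 ± 0.36, adjusted p = 0.61).

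Of the genes linked to the DUX4 subtype, 0 of 9 measured members were called higher in REH and 8 lower (1 and 8 without REH CSF 3), with a median log2 difference of −3.17. The growth factor receptor gene PDGFRA had 0.274, 0.0854 and 0.0346 CPM in REH, against 321, 334 and 339 CPM in NALM-6 (log2 difference −8.20 ± 0.12, adjusted p = 4.3e-08). The adaptor gene STAP1 had 1.41, 0.555 and 0.795 CPM in REH, against 188, 190.1 and 184 CPM in NALM-6 (log2 difference −6.64 ± 0.17, adjusted p = 1.6e-07). AGAP1, a trafficking regulator, had 18.7, 17.6 and 12.1 CPM in REH, against 254, 277 and 259 CPM in NALM-6 (log2 difference −3.97 ± 0.17, adjusted p = 1.7e-06). REH was far below NALM-6 in every library for these 3 genes. CLEC12A, a lectin receptor and therapy target, had 0, 0.128 and 0.0691 CPM in REH, against 8.79, 6.37 and 8.45 CPM in NALM-6 (log2 difference −3.05 ± 0.14, adjusted p = 2.2e-06). ERG, a transcription factor gene, was the member not called, with 158, 150.3 and 116 CPM in REH, against 122, 128 and 119.8 CPM in NALM-6 (log2 difference 0.19 ± 0.14, adjusted p = 0.32). DUX4 itself, also listed, had no read counted in any CSF library of either line. A count of 0 after this processing does not show that DUX4 was silent.

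Transcription factors of the B lineage were lower more often than higher in REH in CSF. Of this list, 4 of 28 measured members were called higher in REH and 10 lower (8 and 13 without REH CSF 3), with a median log2 difference of −0.15. In media the counts went the other way, with 12 called higher and 3 lower. More members were higher than lower there in general, 26.0% and 13.3% of all members. The media median was 0.51, against 0.26 over all members. Without NALM-6 media 1, a library with 19.7% of its reads on ribosomal protein genes, the median over all members was 0.08. The difference between CSF and media was itself called for 1 member, in the direction of NALM-6. IRF4, which drives plasma cell and pre-B programs, had 1.53, 1.62 and 0.968 CPM in REH, against 173, 181 and 179 CPM in NALM-6 (log2 difference −6.25 ± 0.14, adjusted p = 9.5e-08). IKZF3, which encodes Aiolos, had 0.196, 0.0427 and 0.0691 CPM in REH, against 10.2, 12.3 and 12.9 CPM in NALM-6 (log2 difference −3.53 ± 0.13, adjusted p = 6.3e-07). BACH2, a repressor of plasma cell fate, had 87.7, 85.4 and 36.5 CPM in REH, against 279, 316 and 300.1 CPM in NALM-6 (log2 difference −2.18 ± 0.32, adjusted p = 0.0012). REH lay below NALM-6 in every library for the 3, with BACH2 lowest in REH CSF 3. BCL6, the germinal center repressor that also protects pre-B cells, went the other way with 175, 177 and 110.4 CPM in REH, against 26.03, 25.5 and 27.1 CPM in NALM-6 (log2 difference 2.48 ± 0.19, adjusted p = 3.8e-05).

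On the cell surface, 10 of 33 measured members were called higher in REH and 18 lower (11 and 19 without REH CSF 3), with a median log2 difference of −0.65. MME, which encodes CD10, had 151, 134 and 93.8 CPM in REH, against 895, 969 and 965 CPM in NALM-6 (log2 difference −2.92 ± 0.18, adjusted p = 1.2e-05). CD9, a tetraspanin, had 13.1, 15.8 and 15.2 CPM in REH, against 321, 317 and 316 CPM in NALM-6 (log2 difference −4.35 ± 0.11, adjusted p = 1.4e-07). PTPRC, which encodes the common leukocyte antigen CD45, had 350.5, 305 and 160.3 CPM in REH, against 2.22, 2.17 and 2.84 CPM in NALM-6 (log2 difference 6.25 ± 0.29, adjusted p = 2.2e-06). REH was lower in all libraries for MME and CD9 and higher for PTPRC. FLT3, a receptor kinase of progenitors, had 92.8, 83.4 and 64.1 CPM in REH, against 5.47, 6.81 and 6.88 CPM in NALM-6 (log2 difference 3.45 ± 0.17, adjusted p = 3.2e-06). CD52, the target of alemtuzumab, had 64.2, 62.7 and 118 CPM in REH, against 7.48, 8.84 and 9.04 CPM in NALM-6 (log2 difference 3.07 ± 0.25, adjusted p = 4.9e-05). CD70, a TNF-family ligand, had 79.001, 90.5 and 122 CPM in REH, against 4.5, 3.65 and 4.44 CPM in NALM-6 (log2 difference 4.22 ± 0.18, adjusted p = 1.6e-06). All REH libraries were above all NALM-6 libraries for FLT3, CD52 and CD70, with REH CSF 3 lowest for FLT3 and highest for CD52 and CD70.

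Receptors and adhesion molecules differed in both directions. Among cytokine and growth factor receptors, 10 of 23 measured members were called higher in REH and 9 lower (11 and 9 without REH CSF 3), with a median log2 difference of 0.32. IFNGR2, a chain of the interferon gamma receptor, had 46.1, 40.4 and 53.7 CPM in REH, against 0.0346, 0 and 0 CPM in NALM-6 (ratio of summed reads 4092, interval 734 to 161674, adjusted p = 1.2e-07). PDGFRB had 127, 129 and 79.3 CPM in REH, against 8.9, 7.29 and 7.9 CPM in NALM-6 (log2 difference 3.61 ± 0.21, adjusted p = 6.7e-06), the opposite direction to its relative PDGFRA. Among integrins and adhesion genes, 9 of 20 measured members were called higher in REH and 5 lower (11 and 5 without REH CSF 3), with a median log2 difference of 0.52. ITGA6, the laminin receptor chain studied in leukemia cells that enter the nervous system, had 16.2, 15.97 and 9.05 CPM in REH, against 130.03, 151 and 145 CPM in NALM-6 (log2 difference −3.32 ± 0.22, adjusted p = 1.6e-05). ALCAM, an adhesion molecule gene, had 18.2, 16.9 and 10.2 CPM in REH, against 0, 0 and 0 CPM in NALM-6 (at least 428-fold higher in REH, adjusted p = 4.5e-06). REH was below NALM-6 for ITGA6 and above it for ALCAM. ITGAV, a fibronectin and vitronectin receptor chain, had 0.157, 0 and 0 CPM in REH, against 9.62, 10.9 and 10.9 CPM in NALM-6 (log2 difference −3.45 ± 0.12, adjusted p = 4.6e-07). Among chemokines and their receptors, 6 of 11 measured members were called higher in REH and 4 lower (6 and 4 without REH CSF 3), with a median log2 difference of 0.64 (0.40 without that library). S1PR1, a receptor for egress from tissue, had 0.0783, 0.256 and 0.104 CPM in REH, against 3.08, 4.31 and 4.93 CPM in NALM-6 (log2 difference −2.14 ± 0.16, adjusted p = 2.9e-05). Of JAK-STAT and RAS pathway genes, 5 of 33 measured members were called higher in REH and 11 lower (9 and 12 without REH CSF 3), with a median log2 difference of −0.15.

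**Figure D2:**
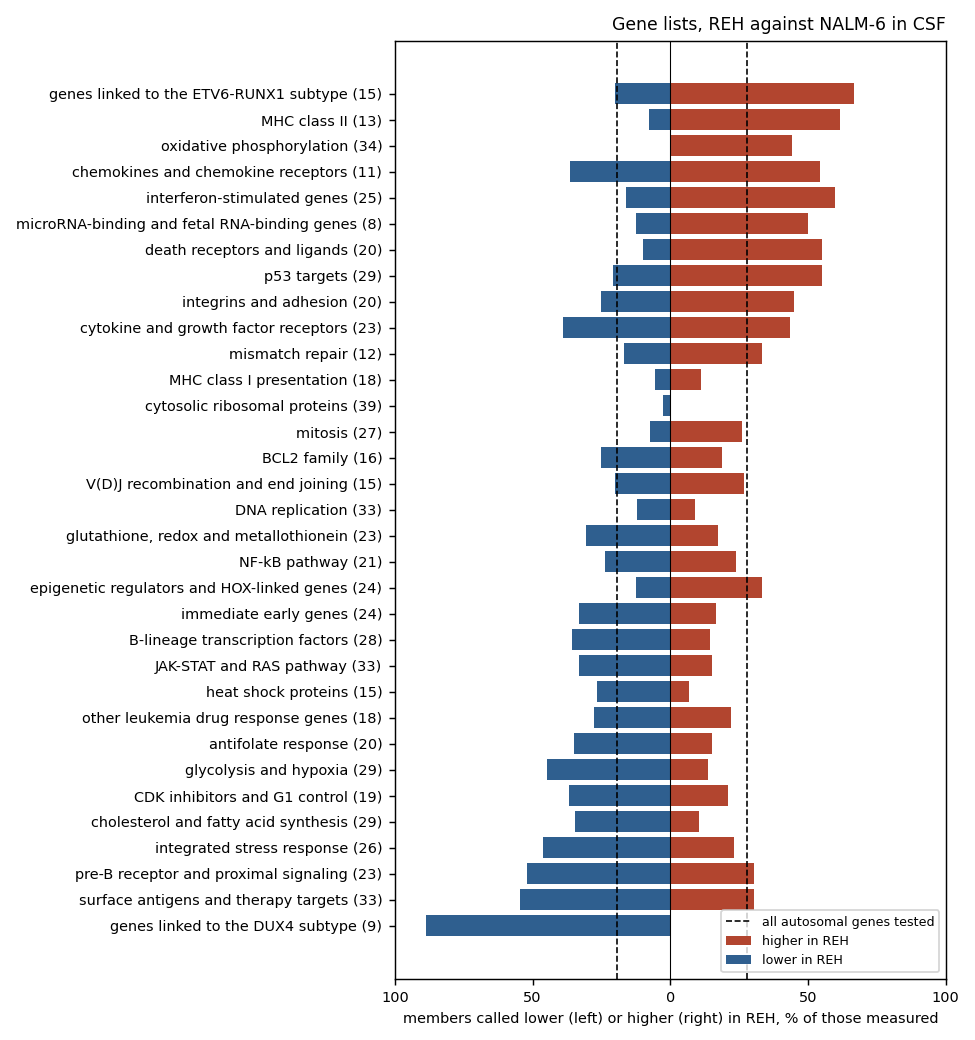
Share of measured members (number in brackets) of each gene list called lower (left, blue) or higher (right, red) in REH than in NALM-6 in CSF, with dashed lines at the shares of all 13425 members, 28.0% higher and 19.4% lower. The DUX4-linked list lies farthest to the left, with 8 of 9 lower, and the ETV6-RUNX1-linked list farthest to the right, with 10 of 15 higher.

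MHC class II and interferon-stimulated genes were more often higher than lower in REH. So were all members, with 28.0% higher and 19.4% lower. Of MHC class II genes, which present antigen to helper T cells, 8 of 13 measured members were called higher in REH and 1 lower (10 and 1 without REH CSF 3), with a median log2 difference of 0.67. CD74, the class II invariant chain gene, had 1529.6, 1557 and 2010.2 CPM in REH, against 1180.1, 1092 and 1158 CPM in NALM-6 (log2 difference 0.56 ± 0.14, adjusted p = 0.014). HLA-DMB, a peptide editor, had 25.4, 24.3 and 28.9 CPM in REH, against 10.4, 8.58 and 11.1 CPM in NALM-6 (log2 difference 1.31 ± 0.14, adjusted p = 2.0e-04). CIITA, the class II master regulator gene, had 148, 162 and 107 CPM in REH, against 126, 121 and 126 CPM in NALM-6 (log2 difference 0.14 ± 0.17, adjusted p = 0.53), and it was called higher without REH CSF 3 (adjusted p = 0.0048). HLA genes are polymorphic and have close relatives, so reads may have been assigned unequally between 2 genotypes. Of interferon-stimulated genes, 15 of 25 measured members were called higher in REH and 4 lower (15 and 6 without REH CSF 3), with a median log2 difference of 0.60. The antiviral membrane protein gene IFITM3 had 33.2, 34.4 and 57.6 CPM in REH, against 0.346, 0.405 and 0.0653 CPM in NALM-6 (log2 difference 5.03 ± 0.23, adjusted p = 2.4e-06). MX2, which restricts viruses, had 56.4, 54.3 and 48.7 CPM in REH, against 7.24, 7.22 and 8.61 CPM in NALM-6 (log2 difference 2.64 ± 0.13, adjusted p = 2.6e-06). RSAD2, which encodes viperin, had 13.1, 12.1 and 10.7 CPM in REH, against 1.04, 0.81 and 0.848 CPM in NALM-6 (log2 difference 2.77 ± 0.12, adjusted p = 1.8e-06). None of the 3 overlapped between the lines. Members of the same list also went the other way. IFITM2, a relative of IFITM3, had 77.4, 74.96 and 123 CPM in REH, against 224, 203 and 183 CPM in NALM-6 (log2 difference −1.17 ± 0.21, adjusted p = 0.0027). OAS2, an antiviral sensor gene, had 46.6, 40.4 and 29.2 CPM in REH, against 93.6, 94.4 and 96.9 CPM in NALM-6 (log2 difference −1.30 ± 0.18, adjusted p = 7.2e-04). The 2 IFITM genes are close relatives, so the split of reads between them is uncertain. Of MHC class I presentation genes, 2 of 18 measured members were called higher in REH and 1 lower (8 and 2 without REH CSF 3), with a median log2 difference of 0.21.

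Targets of p53, the transcription factor that halts or kills damaged cells, were more often higher than lower in REH in CSF. So were all members, with 28.0% higher and 19.4% lower. Of p53 targets, 16 of 29 measured members were called higher in REH and 6 lower (22 and 6 without REH CSF 3), with a median log2 difference of 0.54. In media the same list had 5 members called higher and 6 lower, and the difference between CSF and media was itself called for 8 members in the direction of REH and 1 in the direction of NALM-6, where 3.21% and 1.26% of all members were so called. TP53I3, an oxidoreductase gene, had 46.4, 51.4 and 68.2 CPM in REH, against 11.6, 9.32 and 10.9 CPM in NALM-6 (log2 difference 2.27 ± 0.17, adjusted p = 3.2e-05). In media it had 10.1, 7.67 and 6.88 CPM in REH, against 12.8, 6.43 and 5.17 CPM in NALM-6 (log2 difference 0.09, adjusted p = 0.81; CSF minus media 2.18 ± 0.39, adjusted p = 0.0089). REH exceeded NALM-6 in CSF, and the lines overlapped in media. GDF15, a stress cytokine gene, had 18.8, 26.7 and 30.8 CPM in REH, against 5.61, 5.38 and 4.93 CPM in NALM-6 (log2 difference 2.04 ± 0.19, adjusted p = 9.0e-05). In media it was at or near 0 in both lines, with 0, 0 and 0.0331 CPM in REH, against 0, 0 and 0.0269 CPM in NALM-6 (CSF minus media 2.04 ± 0.21, adjusted p = 3.2e-04). Only the CSF libraries held GDF15 at more than 1 CPM, REH above NALM-6. FDXR, the ferredoxin reductase gene, had 154, 227 and 290.2 CPM in REH, against 88.9, 80.05 and 79.6 CPM in NALM-6 (log2 difference 1.37 ± 0.22, adjusted p = 0.0019). In media it had 16.9, 16.6 and 14.8 CPM in REH, against 65.8, 27.2 and 24.4 CPM in NALM-6 (log2 difference −1.09; CSF minus media 2.47 ± 0.48, adjusted p = 0.014). The highest NALM-6 value in media for FDXR came from NALM-6 media 1, a library with 19.7% of its reads on ribosomal protein genes. With edgeR none of these 3 contrasts was called (adjusted p = 0.0674 for TP53I3, 0.452 for GDF15 and 0.063 for FDXR). CDKN1A, which encodes the cell cycle inhibitor p21, had 526, 604 and 648 CPM in REH, against 1359, 1307 and 1307 CPM in NALM-6 (log2 difference −1.16 ± 0.12, adjusted p = 1.5e-04). BAX, a pore-forming death effector, had 212, 257 and 368 CPM in REH, against 125, 109 and 115 CPM in NALM-6 (log2 difference 1.22 ± 0.20, adjusted p = 0.0021). MDM2, the ubiquitin ligase of p53, had 409, 368 and 246 CPM in REH, against 729, 757 and 734 CPM in NALM-6 (log2 difference −1.15 ± 0.19, adjusted p = 0.0022). CDKN1A and MDM2 were thus lower in every REH library, and BAX higher, with REH CSF 3 the highest.

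Of death receptors and their ligands, 11 of 20 measured members were called higher in REH and 2 lower (15 and 2 without REH CSF 3), with a median log2 difference of 0.55 (0.78 without that library). LTB, a lymphotoxin gene, had 50.8, 66.2 and 93.9 CPM in REH, against 0.346, 0.405 and 0.718 CPM in NALM-6 (log2 difference 5.54 ± 0.23, adjusted p = 1.4e-06). LTA, which encodes its partner, had 39.2, 45.8 and 59.6 CPM in REH, against 1.32, 0.958 and 1.14 CPM in NALM-6 (log2 difference 4.51 ± 0.17, adjusted p = 9.1e-07). For both, NALM-6 was near 1 CPM or below and every REH library was far above it. TNFRSF10A, a receptor for the ligand TRAIL, had 22.7, 22.5 and 13.1 CPM in REH, against 3.08, 1.99 and 3.0 CPM in NALM-6 (log2 difference 2.44 ± 0.24, adjusted p = 1.2e-04). The ligand gene TNFSF10 had 6.1, 4.19 and 5.08 CPM in REH, against 0, 0 and 0.0653 CPM in NALM-6 (ratio of summed reads 223, interval 61.4 to 1848, adjusted p = 4.6e-06). In the BCL2 family, 3 of 16 measured members were called higher in REH and 4 lower (6 and 4 without REH CSF 3), with a median log2 difference of 0.06. BIK, a BH3-only killer gene, had 0.0783, 0.128 and 0.346 CPM in REH, against 16.7, 13.1 and 15.4 CPM in NALM-6 (log2 difference −3.76 ± 0.14, adjusted p = 7.8e-07).

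Stress response, glycolysis and lipid synthesis genes were more often lower than higher in REH in CSF. Of integrated stress response genes, a program of the transcription factor ATF4 under amino acid shortage, 6 of 26 measured members were called higher in REH and 12 lower (6 and 15 without REH CSF 3), with a median log2 difference of −0.39. STC2, a secreted calcium regulator, had 0.391, 0.427 and 0.104 CPM in REH, against 132, 125 and 134 CPM in NALM-6 (log2 difference −6.66 ± 0.14, adjusted p = 7.1e-08). PSAT1, an enzyme of serine synthesis, had 91.1, 84.4 and 85.9 CPM in REH, against 229, 241 and 235 CPM in NALM-6 (log2 difference −1.42 ± 0.10, adjusted p = 2.0e-05). The stress transcription factor ATF5 had 139, 183 and 169 CPM in REH, against 545, 509 and 501 CPM in NALM-6 (log2 difference −1.67 ± 0.13, adjusted p = 4.0e-05). The libraries of the lines did not overlap for any of these 3. In media 2 members of the stress response list were called higher and 12 lower, the same direction as in CSF. Of glycolysis and hypoxia genes, 4 of 29 measured members were called higher in REH and 13 lower (6 and 14 without REH CSF 3), with a median log2 difference of −0.28. In media 2 of these were called higher and 7 lower, also the same direction. HK2, which commits glucose to glycolysis, had 84.4, 79.999 and 50.3 CPM in REH, against 209, 219 and 214 CPM in NALM-6 (log2 difference −1.60 ± 0.20, adjusted p = 4.7e-04). P4HA1, a prolyl hydroxylase gene, had 26.8, 27.8 and 25.5 CPM in REH, against 110.5, 109 and 110.2 CPM in NALM-6 (log2 difference −2.001 ± 0.10, adjusted p = 3.3e-06). Of cholesterol and fatty acid synthesis, 3 of 29 measured members were called higher in REH and 10 lower (6 and 17 without REH CSF 3), with a median log2 difference of −0.38. In media 3 were called higher and 4 lower, with a median of 0.30, against 0.26 over all members. The difference between CSF and media was itself called for 0 members of the cholesterol and fatty acid list. The fatty acid elongase gene ELOVL6 had 5.4, 5.42 and 4.56 CPM in REH, against 39.9, 38.6 and 42.97 CPM in NALM-6 (log2 difference −2.76 ± 0.12, adjusted p = 1.7e-06). DHCR7, the last enzyme of cholesterol synthesis, had 49.2, 47.7 and 46.9 CPM in REH, against 109.6, 108 and 108 CPM in NALM-6 (log2 difference −1.16 ± 0.10, adjusted p = 5.3e-05). The sterol exporter gene ABCG1 had 6.77, 6.53 and 5.25 CPM in REH, against 91.9, 97.1 and 97.2 CPM in NALM-6 (log2 difference −3.75 ± 0.13, adjusted p = 4.6e-07). REH was below NALM-6 in every library for all 3, as it was for SCD.

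Counts over short, abundant genes depended on REH CSF 3. Of oxidative phosphorylation genes, 15 of 34 measured members were called higher in REH and 0 lower (22 and 2 without REH CSF 3), with a median log2 difference of 0.65 (0.37 without that library). In media this list had a median of −0.21, against 0.26 over all members, with 1 member called higher and 2 lower. The difference between CSF and media was itself called for 0 members of this list. The media values include NALM-6 media 1, a library with 19.7% of its reads on ribosomal protein genes. NDUFS5, a complex I subunit gene, had 156, 159 and 305 CPM in REH, against 40.6, 46.97 and 40.7 CPM in NALM-6 (log2 difference 2.18 ± 0.26, adjusted p = 3.9e-04), with REH CSF 3 the highest. Of cytosolic ribosomal protein genes, 0 of 39 measured members were called higher in REH and 1 lower (0 and 17 without REH CSF 3), with a median log2 difference of 0.14 (−0.11 without that library). With the members cut into 3 equal groups by exonic length, the median difference was 0.19 for the shortest, 0.05 for the middle and −0.11 for the longest genes, and 0.09, 0.07 and 0.05 without REH CSF 3. The part of gene length in these lists was not tested.

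Of 5 measured metallothionein genes, which encode small metal-binding proteins, 4 were called lower in REH, with and without REH CSF 3. With all 6 libraries, 19.4% of all members were called lower. MT1F, MT1G and MT1H were under 1 CPM in every REH library and passed the filter through NALM-6 alone, so their direction was fixed. MT1G had 0, 0.0427 and 0.0691 CPM in REH, against 152, 145 and 145 CPM in NALM-6 (ratio of summed reads 0.000262, interval 5.40e-05 to 0.000765, adjusted p = 4.3e-08). MT1H had 0, 0 and 0 CPM in REH, against 64.6, 59.7 and 61.8 CPM in NALM-6 (at least 1612-fold lower in REH, adjusted p = 4.8e-08). MT1X had 6.96, 5.0 and 13.4 CPM in REH, against 75.4, 61.4 and 74.95 CPM in NALM-6 (log2 difference −3.01 ± 0.31, adjusted p = 1.6e-04). REH thus had few or no reads of MT1G and MT1H and kept some of MT1X. MT2A, the member not called, had 45.4, 45.4 and 90.5 CPM in REH, against 56.1, 48.5 and 45.3 CPM in NALM-6 (log2 difference 0.20 ± 0.27, adjusted p = 0.58). These genes are near-identical copies, so the split of reads among them is uncertain. In the wider glutathione, redox and metallothionein list, 4 of 23 measured members were called higher in REH and 7 lower (7 and 11 without REH CSF 3), with a median log2 difference of −0.05. GSTM1, a glutathione transferase gene that many people lack, had 0.157, 0 and 0 CPM in REH, against 36.4, 36.4 and 35.99 CPM in NALM-6 (log2 difference −5.15 ± 0.11, adjusted p = 8.3e-08). Of heat shock genes, 1 of 15 measured members were called higher in REH and 4 lower (2 and 9 without REH CSF 3), with a median log2 difference of −0.18. The mitochondrial chaperone gene HSPD1 had 620.5, 589.98 and 671 CPM in REH, against 1045, 1089.5 and 1069.9 CPM in NALM-6 (log2 difference −0.77 ± 0.10, adjusted p = 7.5e-04).

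The antifolate list holds genes by which methotrexate enters, stays in, acts in and leaves a cell. Of this list, 3 of 20 measured members were called higher in REH and 7 lower (5 and 10 without REH CSF 3), with a median log2 difference of −0.26. SLC19A1, the reduced folate carrier that takes up methotrexate, had 97.1, 123 and 130.2 CPM in REH, against 78.2, 70.9 and 76.7 CPM in NALM-6 (log2 difference 0.62 ± 0.14, adjusted p = 0.009). GGH, which removes the polyglutamate tail that retains the drug, had 66.1, 58.1 and 86.5 CPM in REH, against 38.1, 37.5 and 38.3 CPM in NALM-6 (log2 difference 0.85 ± 0.16, adjusted p = 0.0037). FOLR2, a folate receptor gene, had 1.33, 1.37 and 1.9 CPM in REH, against 0.242, 0.221 and 0.228 CPM in NALM-6 (log2 difference 1.03 ± 0.12, adjusted p = 2.6e-04). These 3 were the members called higher, the last at a low level and not with quantile normalization. FPGS, which adds the polyglutamate tail, had 103, 135 and 145 CPM in REH, against 162, 147 and 150.5 CPM in NALM-6 (log2 difference −0.27 ± 0.15, adjusted p = 0.18). FPGS was not called, although every REH library was below every NALM-6 library, and without REH CSF 3 it was called lower (log2 difference −0.37, adjusted p = 0.025).

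Of 4 measured drug exporter genes in this list, 3 were called lower in REH, as were 19.4% of all members. ABCC3, also listed, had no read in any CSF library. ABCG2 had 2.74, 3.08 and 2.87 CPM in REH, against 23.96, 25.6 and 24.8 CPM in NALM-6 (log2 difference −2.73 ± 0.11, adjusted p = 1.0e-06). ABCC4 had 21.3, 16.96 and 10.5 CPM in REH, against 41.9, 45.9 and 49.7 CPM in NALM-6 (log2 difference −1.49 ± 0.24, adjusted p = 0.0018). ABCC1 had 84.8, 87.05 and 51.7 CPM in REH, against 132, 141 and 138 CPM in NALM-6 (log2 difference −0.91 ± 0.21, adjusted p = 0.0092). No REH library reached the lowest NALM-6 library for these 3, while ABCC2, a further exporter, was near 2 CPM or below in both lines and not called (log2 difference −0.14 ± 0.17, adjusted p = 0.55). The mitochondrial folate enzyme gene MTHFD1L had 76.1, 74.02 and 76.1 CPM in REH, against 132, 129.6 and 128 CPM in NALM-6 (log2 difference −0.78 ± 0.10, adjusted p = 4.3e-04). TYMS, thymidylate synthase, had 538, 526 and 689 CPM in REH, against 770.1, 795 and 761 CPM in NALM-6 (log2 difference −0.42 ± 0.13, adjusted p = 0.038). The TYMS call ended when REH CSF 1 or 2 or any single NALM-6 library was left out, and it was kept without REH CSF 3 (adjusted p = 7.9e-05). MTHFD2, a mitochondrial folate enzyme gene, had 393, 373 and 349 CPM in REH, against 490.4, 508 and 495 CPM in NALM-6 (log2 difference −0.42 ± 0.10, adjusted p = 0.012). MTRR, which keeps methionine synthase active, had 48.8, 42.4 and 31.03 CPM in REH, against 64.98, 64.1 and 69.4 CPM in NALM-6 (log2 difference −0.71 ± 0.17, adjusted p = 0.013). The MTHFD2 call ended when any NALM-6 library was left out and the MTRR call without NALM-6 CSF 3, and both ended with all 12 libraries in 1 fit. ATIC, GART, SHMT1, SHMT2, MTHFD1 and MTR, enzymes of purine, serine and methionine steps of the folate cycle, were not called, with log2 differences between −0.60 and 0.28.

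Among other drug response genes, 4 of 18 measured members were called higher in REH and 5 lower (6 and 7 without REH CSF 3), with a median log2 difference of −0.19. NR3C1, the glucocorticoid receptor gene through which prednisone and dexamethasone act, had 26.6, 24.1 and 16.7 CPM in REH, against 114, 128 and 125 CPM in NALM-6 (log2 difference −2.42 ± 0.18, adjusted p = 3.0e-05). TPMT, which inactivates thiopurines, had 30.01, 27.6 and 31.03 CPM in REH, against 55.1, 62.7 and 59.97 CPM in NALM-6 (log2 difference −0.98 ± 0.11, adjusted p = 2.9e-04). Of mismatch repair genes, 4 of 12 measured members were called higher in REH and 2 lower (7 and 3 without REH CSF 3), with a median log2 difference of 0.21. MSH6, which takes part in recognizing mismatches, had 383, 384 and 312 CPM in REH, against 223, 227 and 232 CPM in NALM-6 (log2 difference 0.65 ± 0.12, adjusted p = 0.0034). Every REH library was above every NALM-6 library.

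Of genes of V(D)J recombination and end joining, 4 of 15 measured members were called higher in REH and 3 lower (7 and 5 without REH CSF 3), with a median log2 difference of 0.05. The end-joining ligase gene LIG4 had 22.4, 20.5 and 13.3 CPM in REH, against 117, 126 and 127 CPM in NALM-6 (log2 difference −2.69 ± 0.19, adjusted p = 2.5e-05). Of CDK inhibitors and G1 control genes, 4 of 19 measured members were called higher in REH and 7 lower (5 and 10 without REH CSF 3), with a median log2 difference of −0.34. CDC25A, the phosphatase that opens S phase, had 76.2, 83.2 and 73.6 CPM in REH, against 219, 213 and 221 CPM in NALM-6 (log2 difference −1.48 ± 0.10, adjusted p = 2.0e-05). MYC, listed with the immediate early genes, had 102, 103 and 109.96 CPM in REH, against 477, 447 and 452 CPM in NALM-6 (log2 difference −2.12 ± 0.10, adjusted p = 2.4e-06). In that list, 4 of 24 measured members were called higher in REH and 8 lower (4 and 9 without REH CSF 3), with a median log2 difference of −0.14. Of mitosis genes, 7 of 27 measured members were called higher in REH and 2 lower (11 and 6 without REH CSF 3), with a median log2 difference of 0.09. The mitotic kinase gene CDK1 had 238, 218 and 238 CPM in REH, against 125, 137 and 131 CPM in NALM-6 (log2 difference 0.82 ± 0.10, adjusted p = 4.8e-04). Of DNA replication genes, 3 of 33 measured members were called higher in REH and 4 lower (7 and 7 without REH CSF 3), with a median log2 difference of 0.02. Among NF-kB pathway genes, 5 of 21 measured members were called higher in REH and 5 lower (6 and 7 without REH CSF 3), with a median log2 difference of −0.06. NFKB1, a core subunit, had 81.5, 78.7 and 55.98 CPM in REH, against 150.4, 166 and 158 CPM in NALM-6 (log2 difference −1.14 ± 0.16, adjusted p = 9.2e-04).

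HOXA genes, homeobox genes that pattern the body axis and mark some leukemias, were read in REH and almost absent from NALM-6. All 10 measured HOXA genes (chromosome 7, 27092993 to 27200106) were called higher, with and without REH CSF 3 and also in media. All 10 passed the filter on low values through the REH libraries alone, so a direction toward REH was fixed by the filter and the count is a description. HOXA3 had 14.5, 18.4 and 14.998 CPM in REH, against 0, 0 and 0 CPM in NALM-6 (at least 458-fold higher in REH, adjusted p = 2.8e-07). HOXA5 had 8.02, 7.9 and 9.78 CPM in REH, against 0, 0 and 0 CPM in NALM-6 (at least 249.6-fold higher in REH, adjusted p = 5.8e-07). HOXA13 had 11.8, 10.5 and 7.95 CPM in REH, against 0, 0 and 0 CPM in NALM-6 (at least 289-fold higher in REH, adjusted p = 1.6e-06). HOXA7 was the only one of the 10 with a NALM-6 read in CSF. Several HOXA genes overlap each other or antisense genes, so reads may have been shared. In the list of epigenetic regulators and HOX-linked genes, 8 of 24 measured members were called higher in REH and 3 lower (10 and 4 without REH CSF 3), with a median log2 difference of −0.12 (0.16 without that library). Of microRNA-binding and fetal RNA-binding genes, 4 of 8 measured members were called higher in REH and 1 lower (5 and 2 without REH CSF 3), with a median log2 difference of 0.58.

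Differences also followed position along the chromosomes, in windows of 25 neighbouring members. The highest window median, 1.45, was that of the window with the HOXA genes and SKAP2 (chromosome 7, 24573268 to 27844564). The 10 HOXA genes and SKAP2, whose direction was fixed by the filter, enter this median. The next highest window median, 1.20, was that of the window with the protocadherin gamma genes (chromosome 5, 141213919 to 142326455). These are cell adhesion genes whose shared exons make the split of reads among them uncertain. Of 9 measured protocadherin gamma genes 6 were called higher and 1 lower (8 and 1 without REH CSF 3). PCDHGA1, PCDHGB7, PCDHGA11 and PCDHGC4 passed the filter through REH alone, and PCDHGA10 through NALM-6 alone. In windows of 50 members both medians were lower, 0.41 for the window with the HOXA genes and 0.53 for that with the protocadherin gamma genes, and another window of chromosome 5 (142770377 to 154461054) had the highest, 0.61. The 6 lowest windows lay together on chromosome 3, in a run of 8 consecutive windows whose medians were all under −0.5 (37988059 to 57929168). The run was chosen by its medians in CSF, so many lower members there follow from that choice and the CSF counts are a description. Of their 200 members, 136 (68.0%) were lower in REH and 20 (10.0%) higher, with a median of −0.83. Over all members 19.4% were lower and 28.0% higher. Without REH CSF 3, 154 of the 200 were lower and 23 higher. The other 564 members on chromosome 3 had 120 lower and 128 higher, with a median of −0.03. In the media libraries, which did not enter that choice, 105 of the 200 were lower, where 13.3% of all members were. The median of the 200 in media was −0.62, against 0.26 over all members. CDC25A lies in this stretch, and so does the histone methyltransferase gene SETD2, which had 108, 90.9 and 43.4 CPM in REH, against 216, 242 and 234 CPM in NALM-6 (log2 difference −1.60 ± 0.32, adjusted p = 0.0049). The ribosomal protein gene RPL14, also in it, had 327, 304 and 509 CPM in REH, against 661, 667 and 663 CPM in NALM-6 (log2 difference −0.84 ± 0.20, adjusted p = 0.011), a call lost after length correction. By whole chromosomes, chromosome 21 had the highest median, 0.43, with 66 of 147 members (44.9%) higher in REH (84 without REH CSF 3), and chromosome 3 the lowest, −0.19.

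**Figure D3:**
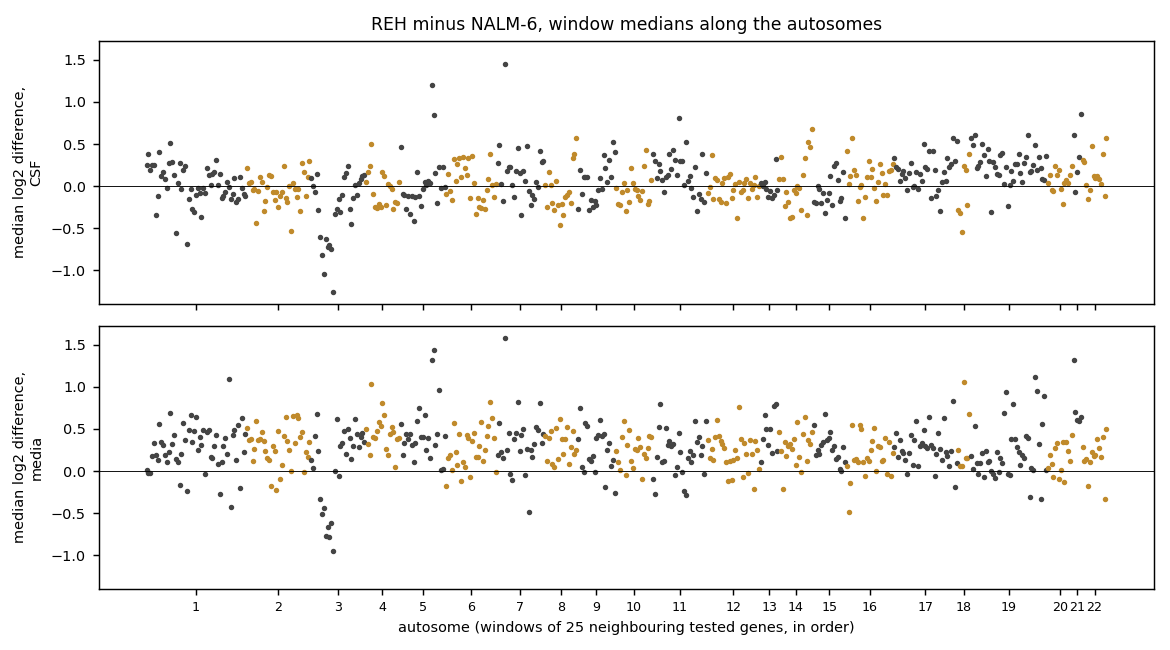
Median REH minus NALM-6 difference on the log2(CPM + 1) scale in consecutive windows of 25 neighbouring members along the autosomes (colors alternate by chromosome), in CSF above and in media below. In CSF the 8 windows on chromosome 3 lie between −0.60 and −1.25, the lowest of all windows being among them, and the same stretch lies below 0 in media.

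Most line differences in CSF were line differences in media too. Of the 6359 calls in CSF, 4012 (63.1%) were called in the same direction in media, which is 76.0% of the 5281 media calls (39.3% of members, 26.0% higher and 13.3% lower), and 23 were called in the opposite direction. Among the 3289 calls with a 2-fold difference, 2673 (81.3%) were called in the same direction in media. Across the 13425 members the differences in CSF and in media correlated at r = 0.846, a description without a test, since genes are not independent. NALM-6 media 1, which enters the media values, held 19.7% ribosomal protein reads, and the median difference in media was 0.26, against 0.08 without that library.

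The difference in CSF minus the difference in media was called for 600 members (4.47%), 431 higher (3.21%) and 169 lower (1.26%). These counts were the least stable here: edgeR called 120, and limma called 2178 with both libraries of high ribosomal protein share (NALM-6 media 1, REH CSF 3) left out. Where a line is near 0 CPM in both conditions, the size of this contrast depends on the pseudocount, and the edgeR value is then given beside it.

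**Figure D4:**
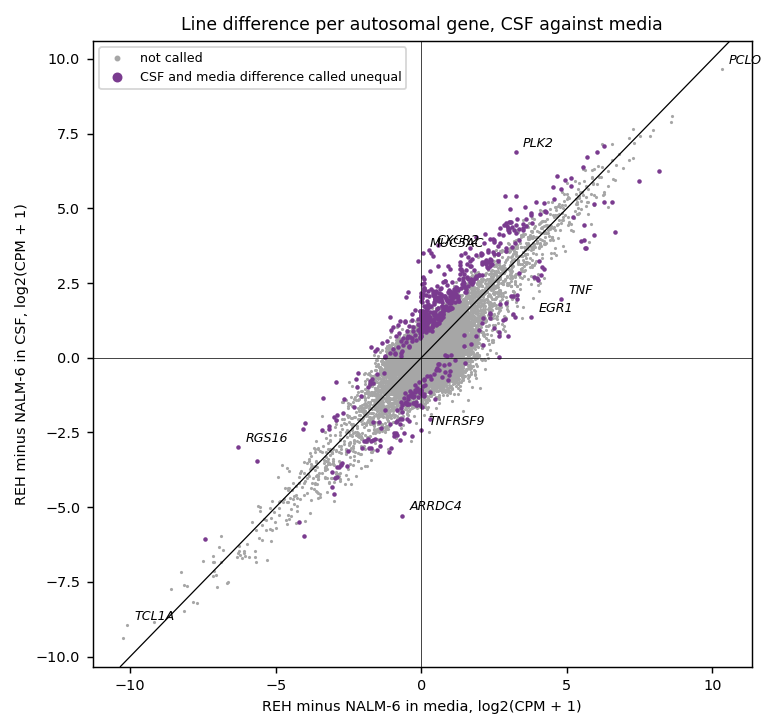
REH minus NALM-6 difference of each autosomal member in CSF (vertical axis) against media (horizontal axis), both on the log2(CPM + 1) scale, with equal values on the diagonal. The 600 members whose 2 differences were called unequal are purple, among them ARRDC4 below the diagonal and RGS16 and PLK2 above it.

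ARRDC4, an arrestin-domain gene that responds to glucose metabolism, gave the most negative such contrast among the genes named. In CSF it had 5.09, 4.74 and 2.59 CPM in REH, against 195, 194 and 196 CPM in NALM-6 (log2 difference −5.29 ± 0.21, adjusted p = 9.6e-07), and in media it had 2.65, 2.15 and 2.68 CPM in REH, against 1.41, 8.04 and 6.65 CPM in NALM-6 (CSF minus media −4.63 ± 0.59, adjusted p = 0.0011). NALM-6 in CSF was thus the only group with high values. Its relative TXNIP, singled out after its values were seen, had 165, 157 and 138 CPM in REH, against 286, 289.6 and 284 CPM in NALM-6 in CSF (log2 difference −0.90 ± 0.11, adjusted p = 4.1e-04), and its contrast was not called (−0.81, adjusted p = 0.12). RGS16, a brake on G-protein signaling, had 38.7, 44.2 and 39.4 CPM in REH, against 346, 327 and 324 CPM in NALM-6 in CSF and 0.209, 0.106 and 0.0992 CPM in REH, against 73.7, 93.8 and 98.6 CPM in NALM-6 in media (CSF minus media 3.29 ± 0.19, adjusted p = 8.4e-06). REH was lower in both conditions, by less in CSF. TNF had 47.1, 51.98 and 64.2 CPM in REH, against 13.99, 13.2 and 12.4 CPM in NALM-6 in CSF (log2 difference 1.95 ± 0.14, adjusted p = 2.8e-05) and 33.7, 33.8 and 37.3 CPM in REH, against 0.275, 0.216 and 0.377 CPM in NALM-6 in media (CSF minus media −2.85 ± 0.19, adjusted p = 3.0e-05). The immediate early gene EGR1 had 43.002, 43.2 and 37.1 CPM in REH, against 15.9, 15.8 and 14.3 CPM in NALM-6 in CSF and 28.3, 28.4 and 37.3 CPM in REH, against 0.688, 1.45 and 2.07 CPM in NALM-6 in media (CSF minus media −2.42 ± 0.29, adjusted p = 7.6e-04). For both genes REH was higher in each condition, by less in CSF.

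Genes of NF-kB signaling also had negative contrasts. The B-cell co-stimulatory receptor gene CD40 had 10.96, 11.9 and 14.7 CPM in REH, against 5.12, 4.05 and 4.44 CPM in NALM-6 in CSF and 6.8, 7.7 and 6.35 CPM in REH, against 0.0344, 0.154 and 0.0538 CPM in NALM-6 in media (CSF minus media −1.60 ± 0.19, adjusted p = 6.4e-04). BCL3, a nuclear NF-kB cofactor, had 27.5, 28.8 and 30.9 CPM in REH, against 19.8, 16.4 and 15.1 CPM in NALM-6 in CSF and 19.1, 19.9 and 18.4 CPM in REH, against 0.825, 2.03 and 2.1 CPM in NALM-6 in media (CSF minus media −2.23 ± 0.28, adjusted p = 9.9e-04). ICAM1, an adhesion molecule gene, had 12.4, 14.1 and 15.3 CPM in REH, against 61.03, 61.8 and 57.4 CPM in NALM-6 in CSF and 7.01, 7.0 and 7.44 CPM in REH, against 11.7, 13.98 and 12.3 CPM in NALM-6 in media (CSF minus media −1.30 ± 0.17, adjusted p = 0.0014). REH was above NALM-6 for CD40 and BCL3 and below it for ICAM1 in both conditions. In the NF-kB list limma called such a contrast negative for 6 of 21 measured members and positive for 1. Of all members, 1.26% were called negative and 3.21% positive. The contrast of ARRDC4, RGS16, TNF, EGR1, CD40, BCL3 and ICAM1 was also called by edgeR.

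Some of the positive contrasts were in genes under 1 CPM in NALM-6 in both conditions. PLK2, a polo-like kinase gene, had 141, 129 and 124 CPM in REH, against 0.0346, 0.332 and 0.0326 CPM in NALM-6 in CSF and 8.83, 8.37 and 8.07 CPM in REH, against 0, 0 and 0 CPM in NALM-6 in media (CSF minus media 3.64 ± 0.17, adjusted p = 2.5e-06). With edgeR its contrast was −0.99 (adjusted p = 0.49), the opposite sign, and NALM-6 was near 0 in both conditions. The next 3 genes had the same pattern at lower levels. CXCR2, a chemokine receptor gene, had 15.9, 13.6 and 11.96 CPM in REH, against 0.138, 0.147 and 0.326 CPM in NALM-6 in CSF and 0.279, 0.176 and 0.165 CPM in REH, against 0, 0 and 0 CPM in NALM-6 in media (CSF minus media 3.35 ± 0.16, adjusted p = 2.5e-06; edgeR 0.41, adjusted p = 0.61). The mucin gene MUC5AC had 7.94, 10.8 and 15.7 CPM in REH, against 0.138, 0.0368 and 0 CPM in NALM-6 in CSF and 0.0698, 0.0352 and 0 CPM in REH, against 0, 0 and 0 CPM in NALM-6 in media (CSF minus media 3.47 ± 0.25, adjusted p = 4.6e-05; edgeR adjusted p = 0.955). DHRS3, a retinoid-metabolizing enzyme gene, had 13.7, 17.7 and 25.8 CPM in REH, against 0.727, 0.221 and 0.424 CPM in NALM-6 in CSF and 0.698, 0.598 and 0.595 CPM in REH, against 0.275, 0 and 0 CPM in NALM-6 in media (CSF minus media 3.17 ± 0.29, adjusted p = 1.7e-04; edgeR adjusted p = 0.28). REH in CSF was the only group above 1 CPM for these 3 genes. The antisense gene ITGB2-AS1, whose reads may belong in part to ITGB2, had 10.3, 12.7 and 14.8 CPM in REH, against 0.623, 0.332 and 0.326 CPM in NALM-6 in CSF and 0.314, 0.211 and 0.298 CPM in REH, against 0.757, 0.216 and 0.215 CPM in NALM-6 in media (CSF minus media 3.36 ± 0.24, adjusted p = 4.6e-05; edgeR adjusted p = 0.010). TNFRSF9, the co-stimulatory receptor 4-1BB, was instead read in NALM-6 in CSF, with 0.274, 0.0854 and 0.0346 CPM in REH, against 4.95, 5.23 and 5.06 CPM in NALM-6 there and 0 CPM in all 6 media libraries (CSF minus media −2.43 ± 0.12, adjusted p = 2.5e-06; edgeR adjusted p = 1).

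**Figure D5:**
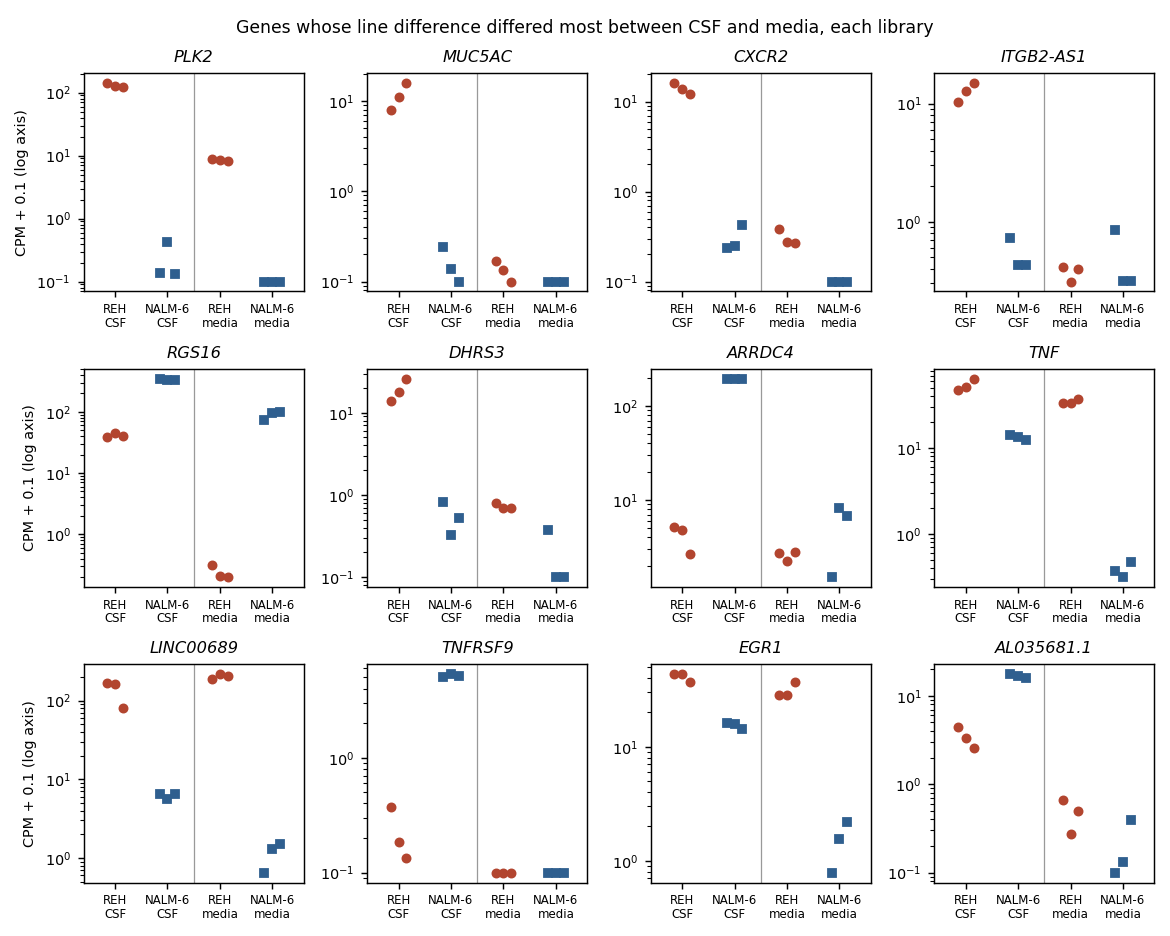
CPM + 0.1 in each library (log axis, its own range in each panel) for the 6 genes each way with the largest called difference between the line contrast in CSF and in media, REH as circles and NALM-6 as squares, CSF left of the line and media right of it. ARRDC4 is high in NALM-6 in CSF only, and PLK2 is highest in REH in CSF.

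The genes outside the protein-coding class described here are among those with the largest differences. Immunoglobulin lambda segments were read in NALM-6. The constant segment IGLC7 had 0.0783, 0.256 and 0.518 CPM in REH, against 893, 827 and 822 CPM in NALM-6 (log2 difference −9.38 ± 0.15, adjusted p = 4.3e-08). The variable segment IGLV2-14 had 0.235, 0.384 and 0.346 CPM in REH, against 625, 599.5 and 607 CPM in NALM-6 (log2 difference −8.86 ± 0.11, adjusted p = 4.3e-08). The constant segments are near-identical, so reads among them cannot be assigned with certainty. The pseudogene ACTG1P22, a close copy of an actin gene, had 70.8, 62.1 and 46.5 CPM in REH, against 0, 0 and 0 CPM in NALM-6 (at least 1709.7-fold higher in REH, adjusted p = 2.1e-07). The pseudogene TPTEP1 had 57.1, 51.2 and 39.7 CPM in REH, against 0, 0 and 0 CPM in NALM-6 (at least 1412-fold higher in REH, adjusted p = 1.8e-07). The long non-coding RNA LINC00958 had 69.5, 71.4 and 46.4 CPM in REH, against 0.312, 0.516 and 0.816 CPM in NALM-6 (log2 difference 5.34 ± 0.21, adjusted p = 9.3e-07). Each was above NALM-6 in every REH library. LINC00689 had 167, 161 and 81.04 CPM in REH, against 6.44, 5.49 and 6.36 CPM in NALM-6 (log2 difference 4.20 ± 0.28, adjusted p = 1.5e-05). AL035681.1 was lower, with 4.34, 3.25 and 2.49 CPM in REH, against 17.5, 16.8 and 15.7 CPM in NALM-6 (log2 difference −2.04 ± 0.17, adjusted p = 5.7e-05).

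Overlapping genes limit some of these values, since the strand setting of the counting is not given in the sources used here. In the annotation PRDX2 overlaps HOOK2 and GSTM1 overlaps GSTM2 on the same strand. On the opposite strand IGSF10 overlaps MED12L, PEG10 overlaps SGCE, CD52 overlaps UBXN11, MSH6 overlaps FBXO11, SLC19A1 overlaps COL18A1, TYMS overlaps ENOSF1, RAG1 overlaps RAG2, HSPD1 overlaps HSPE1 and MOB4, ATF5 overlaps NUP62, RSAD2 overlaps CMPK2, TP53I3 overlaps FAM228B and LINC00689 overlaps VIPR2. Reads in the shared stretches cannot be told apart.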

How the data were processed

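RNA was measured by mRNA sequencing of 12 libraries, 3 of each line in CSF and in media. RNA was isolated with a Qiagen column kit and libraries were made with a stranded TruSeq mRNA kit, per the labels' protocols. The authors deposited CPM values, counts per 1000000 reads of a library, for 60617 genes. Per the submitters' processing notes, the build was GRCh38 and the tools included HISAT2 2.1.0, Trimmomatic 0.33, featureCounts, FastQC and edgeR. No source used here gives the annotation release or the strand setting. Within a tolerance of 1e-06, 100% of the values were whole multiples of 1 read, so reads were recovered for the count tests. Columns were assigned to samples by their names.

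Gene positions and types came from GENCODE 29, which held 58542 of the IDs and lacked 2075. Genes with at least 1 CPM in 3 of the 6 CSF libraries, 13962 in all, were tested with limma 3.58.1 (R 4.3.3) on log2(CPM + 1), with a variance that follows the mean, 2 group means and Benjamini-Hochberg adjustment over all 13962. The 13425 autosomal genes are reported, and 42142 autosomal genes failed the filter. Media and CSF-minus-media contrasts came from 1 fit of the 12 libraries. Alternatives were other pseudocounts, filters and scalings, edgeR 4.0.16 and DESeq2 1.42.0 on the recovered reads, a gene length correction, a replicate block, and each library left out. Tested on simulated data for the CSF comparison with 13962 genes, limma recovered 50% of 2-fold and 97% of 4-fold changes, and 35% and 93% without REH CSF 3. The simulation gave all libraries of a gene the same spread, estimated with REH CSF 3 included, and no library that stands apart. Its values without REH CSF 3 therefore show only the effect of 1 library fewer, not the sensitivity of the real comparison. The labels do not say whether same-numbered libraries of the lines were handled together, and the main fit did not pair them.

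The members and gene lists were chosen with earlier results of these data known. Genes named were the 15 protein-coding and 4 other genes each way with the largest called difference, a mean of at least 5 CPM in the higher line and no overlap, up to 6 called members of each list, the antifolate and subtype lists, the 6 largest contrasts each way between CSF and media, and the 10 most abundant genes each way without reads in a line. Of these, those described were picked for their known roles. MPO, ITGAM and CSF1R are marker genes, and ERG, RUNX1, RAG1, CD79B, CIITA, MT2A and TXNIP, which the rule reaches only in part, were chosen after their values were seen. Intervals and floors cover counting error only. Values of some genes in these lists are not reported here.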

Additional observations from a re-analysis of the deposited data

Results flagged for a closer look

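The difference between REH and NALM-6 in CSF was itself called different from that in media, by limma over 12 libraries, for 600 genes, and the values of those named in the report follow as CSF minus media on the log2(CPM + 1) scale. On that scale the contrast was positive for PLK2 (3.64), MUC5AC (3.47), ITGB2-AS1 (3.36), CXCR2 (3.35), RGS16 (3.29), DHRS3 (3.17), FDXR (2.47), TP53I3 (2.18), GDF15 (2.04), ITGAM (1.60), CSF1R (1.44), TNFAIP2 (1.01), PLIN2 (0.87), ALDH7A1 (0.83) and FOLR2 (0.67). It was negative for ARRDC4 (−4.63), TNF (−2.85), LINC00689 (−2.46), TNFRSF9 (−2.43), EGR1 (−2.42), AL035681.1 (−2.35), BCL3 (−2.23), PTPRC (−1.90), CD40 (−1.60), ACTG1P22 (−1.57), ICAM1 (−1.30) and CDKN1A (−0.83). Of these genes, edgeR on the recovered reads called ARRDC4, TNF, LINC00689, EGR1, BCL3, PTPRC, CD40, ICAM1, RGS16 and ITGB2-AS1. With edgeR the direction turned for PLK2 (−0.99), ITGAM (−0.68) and CSF1R (−0.13). For genes at or near 0 in a line, the value on this scale follows the level of the other line. The share of reads on ribosomal protein genes was 9.40% in REH CSF 3 and 19.7% in NALM-6 media 1, and the part of these libraries in single genes was not tested beyond leaving them out.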

How the results depend on the processing

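For the CSF comparison, the counts of genes called stayed within 1.5 times of 6359 in every alternative, from 4797 to 8562 when a library was left out, with 6369 by edgeR, 6954 by DESeq2 and 5571 with the replicate block. The count with a log2 difference of at least 1 was 1947 with a pseudocount of 5 CPM. Same-numbered libraries of the lines did not deviate together (correlations −0.361, 0.032 and −0.174). With 3 libraries a line, 1 of them standing apart, this cannot show whether same-numbered cultures were handled together. Of the values of single named genes in CSF under the alternatives, 4940 kept their direction and side of the threshold, 129 lost the call, 22 gained one and none reversed. In media, 9025 genes were called with REH CSF 3 and NALM-6 media 1 both left out (5304 higher, 3721 lower), and edgeR called 2771 lower. The contrast of CSF minus media was called for 120 genes by edgeR (68 higher, 52 lower, 111 with a log2 value of at least 1), 320 with the replicate block (240 higher, 80 lower) and 2178 with those libraries left out (1143 higher, 1035 lower). Leaving out 1 library, this contrast was called for 413 to 980 genes, 104 to 408 of them lower, with both upper values without NALM-6 media 1 and lower counts of 104 to 109 without NALM-6 CSF 1 or 3 or any REH media library. The cause of these shifts was not tested. With edgeR the contrast reversed for PLK2 (−0.99), ITGAM (−0.68) and CSF1R (−0.13), none of them called. For the contrasts of single genes, 391 values stayed as called, 38 lost the call and 3 reversed. In windows of 50 genes the highest median was 0.61 and the lowest −0.98, the highest in another region than with 25 genes. Alternatives for the fit without REH CSF 3, and a block within each medium, were added after seeing the data.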
